A study of Rattus norvegicus with 10 samples.

Results

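The response of cultured heart muscle cells to phenylephrine was measured by RNA sequencing in 6 of the 10 libraries of the series, chosen by their labels as the cardiomyocyte libraries with phenylephrine (n = 3) and those in serum-free medium alone (n = 3). The cells were ventricular cardiomyocytes of rats 1 to 3 days old, not passaged, and 10 µM phenylephrine was the treatment. The medium was changed 24 h after plating, and the labels do not give the time in phenylephrine. The other 4 libraries, from cardiac fibroblasts at passage 2 with (n = 2) and without (n = 2) the same treatment, entered the model and a comparison of the responses. Nothing in the labels says that replicates were separate cultures or animals, so p-values measure the spread between these libraries, which may be technical.

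Phenylephrine activates alpha1-adrenergic receptors, which couple through Gq to phospholipase C, calcium release and protein kinase C, and from there to the ERK kinases and to calcineurin and NFAT. In neonatal cardiomyocytes it is widely used to provoke hypertrophic growth, with larger cells, more sarcomere and a return of fetal genes such as the natriuretic peptides. ERK signalling also induces its own feedback inhibitors, among them the Sprouty and dual-specificity phosphatase genes.

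Promoter windows are shown for 6 genes that stand for groups described below. Each is the 250 bases before the annotated start of the gene, on its own strand, from the RefSeq promoter table of build GRCr8, which held a window for 9880 of the genes tested. Inha (chr9:84442859-84443108, plus strand) and Cyp51 (chr4:30991443-30991692, plus strand) rose with phenylephrine whichever cardiomyocyte library was left out. Capitals mark TGACG on either strand, a core of the cAMP response element, which occurs in 18.2% of all 33469 windows.
Inha: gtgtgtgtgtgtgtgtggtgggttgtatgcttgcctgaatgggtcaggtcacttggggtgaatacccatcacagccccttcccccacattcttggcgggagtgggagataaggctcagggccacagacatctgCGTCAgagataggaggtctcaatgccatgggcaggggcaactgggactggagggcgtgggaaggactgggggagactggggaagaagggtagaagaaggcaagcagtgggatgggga
Cyp51: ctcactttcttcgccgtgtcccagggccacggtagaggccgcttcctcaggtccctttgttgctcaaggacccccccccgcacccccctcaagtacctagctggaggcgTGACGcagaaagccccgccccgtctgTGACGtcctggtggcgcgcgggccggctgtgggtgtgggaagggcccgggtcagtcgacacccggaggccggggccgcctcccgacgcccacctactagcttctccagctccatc
Mt1 (chr19:10832976-10833225, minus strand) and Mt2A (chr19:10838709-10838958, minus strand) are neighbouring metallothionein genes that fell together. Capitals mark TGCACNC or TGCGCNC on either strand, the core of the metal response element, which occurs in 20.6% of all windows, and overlapping matches are joined.
Mt1: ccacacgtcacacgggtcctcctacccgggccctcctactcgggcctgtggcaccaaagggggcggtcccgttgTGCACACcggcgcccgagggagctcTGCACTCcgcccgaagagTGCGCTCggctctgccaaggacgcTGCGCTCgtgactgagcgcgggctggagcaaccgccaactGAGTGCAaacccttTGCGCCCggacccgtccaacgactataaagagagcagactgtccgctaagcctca
Mt2A: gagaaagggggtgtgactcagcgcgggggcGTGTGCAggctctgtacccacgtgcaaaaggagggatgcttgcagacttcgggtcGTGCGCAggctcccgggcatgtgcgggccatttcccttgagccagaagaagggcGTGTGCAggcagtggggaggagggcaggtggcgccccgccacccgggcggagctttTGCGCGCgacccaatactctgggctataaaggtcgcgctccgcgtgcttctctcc
Irf7 (chr1:205800024-205800273, minus strand) and Bst2 (chr16:18254968-18255217, minus strand) are interferon-stimulated genes that fell. Capitals mark TTTC followed 2 bases later by another TTTC, on either strand, a core of the interferon-stimulated response element, which occurs in 3.41% of all windows.
Irf7: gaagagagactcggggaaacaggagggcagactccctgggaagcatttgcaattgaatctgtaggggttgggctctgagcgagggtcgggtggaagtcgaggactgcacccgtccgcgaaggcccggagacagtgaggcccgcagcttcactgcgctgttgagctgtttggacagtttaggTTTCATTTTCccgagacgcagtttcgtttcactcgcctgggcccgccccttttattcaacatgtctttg
Bst2: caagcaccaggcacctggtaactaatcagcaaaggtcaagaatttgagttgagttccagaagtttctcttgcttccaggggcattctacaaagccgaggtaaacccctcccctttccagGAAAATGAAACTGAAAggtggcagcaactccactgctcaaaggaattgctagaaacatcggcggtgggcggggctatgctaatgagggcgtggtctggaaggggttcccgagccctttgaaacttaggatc
These matches describe the letters alone.

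Library totals ran from 18397495 to 22794744 counts, and mitochondrial genes took 6.49% to 7.5% of them. All 11 measured cardiomyocyte markers had counts in these libraries, and their summed level was 42864 to 44584 CPM (counts scaled to effective library size) in serum-free medium and 46224 to 52811 CPM with phenylephrine. Leukocyte markers summed to 379 to 430.5 CPM and 241 to 310.3 CPM, and fibroblast markers to 6557 to 11939 CPM and 8885 to 15071 CPM. In bulk RNA fewer cells of a type cannot be told apart from less RNA per cell. Of 13869 genes tested, 503 were called at an adjusted p below 0.05 (3.63%), 248 rising (1.79%) and 255 falling (1.84%), with 35 and 54 of them changing by at least 2-fold. With scaling by library size alone 179 rose and 396 fell. A fit of the 6 cardiomyocyte libraries alone called 91. Leaving out a single fibroblast library with phenylephrine, replicate 1 or replicate 2, left 166 called. The fibroblast libraries bear on the shared estimate of the spread. The groups did not overlap in 3193 of all genes tested (23%), with phenylephrine higher in 1505 and lower in 1688. All 503 called genes were among them, so a lack of overlap adds nothing to a call.

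Serum-free replicate 2 and phenylephrine replicate 1 stood apart from their group mates. Serum-free replicate 2 differed from its own mates by 21.9 and 22.6 times the counting variance, but from the 3 phenylephrine libraries by only 11.7, 11.4 and 13.6 times. On principal component 1, which held 46.3% of the variance, it lay at 2.12, between its mates at -26.7 and -28.7 and the phenylephrine libraries at 14.0, 20.2 and 19.1. Component 2, with 25.9%, held serum-free replicate 2 and phenylephrine replicate 1 on one side, at 16.2 and 24.3, and their mates on the other. Across genes, the deviations of the pair from their group mates correlated at Pearson r = 0.18, a description over 13869 genes that are not independent.

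The 30 collagens tested lay above the group mates by a median log2 of 0.69 in serum-free replicate 2 and 0.55 in phenylephrine replicate 1, and the 33 chemokine, cytokine and acute phase genes lay at medians of -0.74 and -0.44. Over all genes the medians were 0.0055 and -0.0027. The genes named next were picked as the most deviating in these libraries. Col5a3, a minor fibrillar collagen, was at 29.9, 96.5 and 30.2 CPM in serum-free replicates 1 to 3 and at 136.8, 56.1 and 51.7 CPM with phenylephrine. Col6a3, a chain of the microfibrillar collagen VI, was at 39.1, 173 and 46.9 CPM and at 226, 120.2 and 108 CPM. In both genes the library that stands apart was the highest of its group. Lcn2, the acute phase protein lipocalin 2, was at 91.8, 11.0 and 116.8 CPM in serum-free medium and at 13.2, 61.4 and 66.2 CPM with phenylephrine. Cxcl1, a neutrophil chemokine, was at 27.3, 4.66 and 22.4 CPM and at 3.66, 15.4 and 15.6 CPM. Pla2g2a, a secreted phospholipase of inflammation, was at 47.4, 4.28 and 49.7 CPM and at 5.14, 20.04 and 22.5 CPM. In these 3 genes it was the lowest of its group, and none of the 5 was called with all libraries. A pair of Y-linked genes, chosen after their values were seen, also split the phenylephrine libraries. Replicates 2 and 3 lay above all other libraries, and phenylephrine replicate 1 lay near the serum-free ones. Kdm5d, a histone demethylase, was at 11.8, 14.4 and 14.1 CPM and at 15.1, 22.2 and 21.3 CPM. Eif2s3y, a translation initiation factor, was at 28.6, 28.2 and 28.7 CPM and at 29.6, 41.2 and 40.7 CPM. Neither was called with all libraries (adjusted p = 0.0567 and 0.0783), both were without phenylephrine replicate 1 (adjusted p = 0.00322 and 0.00208), and their part in the other results was not tested. In all, 172 genes lay at least 1.5-fold above the mates in both libraries, 105 at least 1.5-fold below in both, and 145 that far apart in opposite directions.

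**Figure D1:**
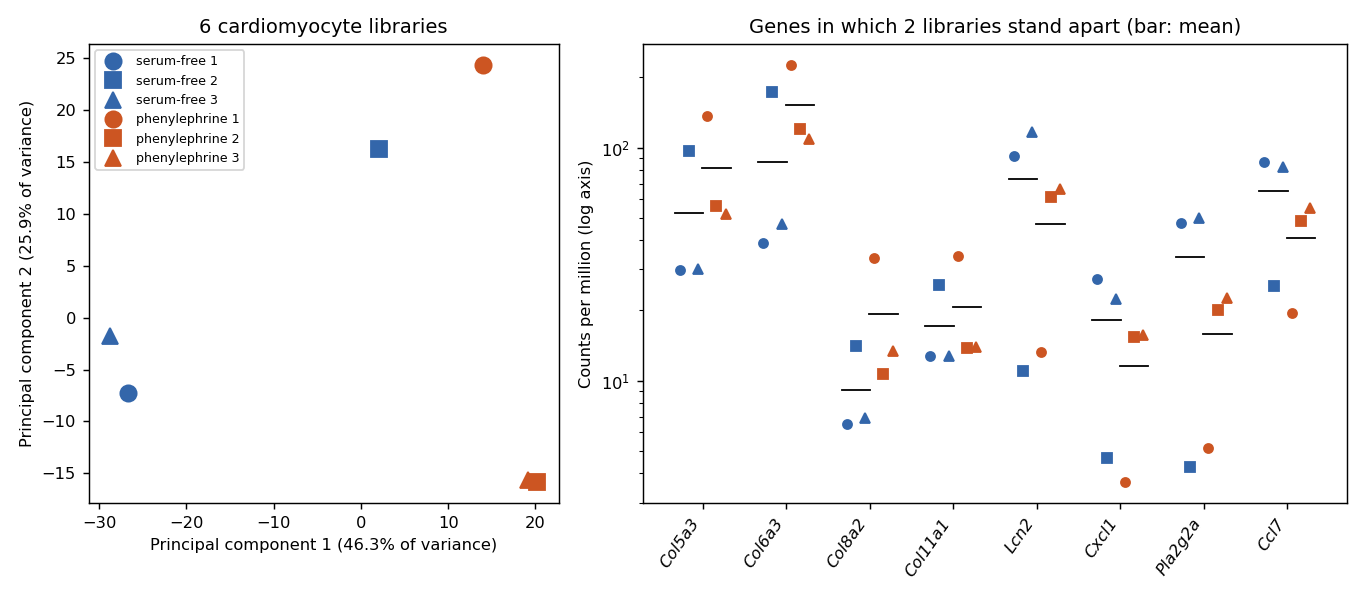
Left, the 6 cardiomyocyte libraries on principal components 1 and 2 (axes: component scores); right, CPM (log axis) by library for 4 collagens and 4 chemokine or acute phase genes, with bars at group means. Serum-free replicate 2 lies at 2.12 on component 1, away from its mates, and it and phenylephrine replicate 1 are the highest of their groups in the collagens and the lowest in the other genes.

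A set of 28 genes (0.202% of those tested) was called in all 6 fits that leave out 1 cardiomyocyte library and in the fit without both libraries that stand apart. Among them 18 rose and 10 fell, and the other called genes lost their call in at least 1 of these fits. The rises included the hormone subunit gene Inha, the prostaglandin genes Slco2a1 and Ptgis, the phosphodiesterase Pde4b and the sterol enzyme Cyp51. Inha, the alpha subunit of inhibins, which oppose activin, was at 39.3, 52.7 and 32.8 CPM in serum-free medium and at 148, 143 and 156 CPM with phenylephrine. The groups lay far apart, and the gene rose 3.59-fold (log2 1.84 ± 0.14 SE, adjusted p = 0.00115). Kif26a, a kinesin family member, was at 12.3, 11.9 and 12.5 CPM and at 27.9, 31.5 and 31.2 CPM. It rose 2.47-fold (log2 1.30 ± 0.08, adjusted p = 2.32e-05), the smallest adjusted p of the 28, and its groups were narrow.

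Slco2a1, the prostaglandin transporter, was at 23.8, 27.8 and 23.7 CPM in serum-free medium and at 46.2, 57.7 and 61.7 CPM with phenylephrine, and rose 2.2-fold (log2 1.14 ± 0.12, adjusted p = 0.00229). Ptgis, prostacyclin synthase, was at 129, 144 and 145 CPM and at 248, 202 and 203 CPM, and rose by log2 0.64 ± 0.08 (adjusted p = 0.00477). For both prostaglandin genes every phenylephrine library exceeded every serum-free library. Of 20 genes of prostaglandin synthesis and receptors these 2 rose and 1 fell (median -0.15). Ptges, which makes prostaglandin E2, was at 1.83, 1.66 and 1.91 CPM and at 1.01, 0.598 and 0.965 CPM, and fell (log2 -1.06 ± 0.25, adjusted p = 0.043).

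Pde4b, a phosphodiesterase that degrades cyclic AMP, was at 30.3, 28.6 and 32.2 CPM in serum-free medium and at 58.2, 52.1 and 51.8 CPM with phenylephrine. It rose 1.78-fold (log2 0.83 ± 0.08, adjusted p = 0.00115). Nr4a3, an orphan nuclear receptor induced by cyclic AMP and calcium, was at 7.23, 6.31 and 7.44 CPM and at 13.8, 14.9 and 13.7 CPM, and rose 2.01-fold (log2 1.01 ± 0.10, adjusted p = 0.00188). Both groups were tight in these genes and did not overlap. Of 24 cAMP-inducible genes tested, 4 rose and 1 fell, where 1.79% of all genes rose and 1.84% fell. The median log2 difference was 0.09, against -0.0013 over all genes. Sik1, a salt-inducible kinase, was at 48.2, 64.5 and 39.9 CPM and at 89.9, 99.1 and 102 CPM, and rose as well (log2 0.94 ± 0.15, adjusted p = 0.0204). Nr4a1, a close relative of Nr4a3, was not called (log2 0.12 ± 0.15, adjusted p = 0.688).

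Further rises of the 28 were smaller or in genes of low counts. Fam13a was at 10.1, 12.4 and 12.6 CPM and at 26.8, 25.04 and 22.6 CPM (log2 1.08 ± 0.12, adjusted p = 0.00229). Col13a1, a transmembrane collagen, was at 1.45, 2.19 and 1.36 CPM and at 4.93, 5.92 and 5.26 CPM (log2 1.70 ± 0.20, adjusted p = 0.00241). Nap1l5, of the nucleosome assembly protein family, was at 3.91, 4.33 and 4.97 CPM and at 10.9, 11.5 and 11.8 CPM (log2 1.37 ± 0.13, adjusted p = 0.00115). None of these groups overlapped. Tmem59l was at 0.434, 0.321 and 0.128 CPM and at 2.65, 1.96 and 2.22 CPM (log2 2.96 ± 0.33, adjusted p = 0.00229). Kl, the FGF coreceptor Klotho, was at 0.289, 0.589 and 0.383 CPM and at 1.7, 3.53 and 2.94 CPM (log2 2.70 ± 0.36, adjusted p = 0.00629). Both had few serum-free counts. The remaining rises were Agpat4, Ssbp3 and Zdhhc9, at log2 0.41 to 0.55.

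The 10 falls included transport, actin and peptide genes. Star, which carries cholesterol into mitochondria for steroid synthesis, was at 22.6, 14.7 and 20.03 CPM in serum-free medium and at 6.84, 4.13 and 4.73 CPM with phenylephrine. It fell 3.65-fold (log2 -1.87 ± 0.21, adjusted p = 0.00241), and serum-free replicate 2 was the lowest of the controls. Ifi27, an interferon-induced gene, was at 324, 347 and 341 CPM and at 224, 210.5 and 235 CPM, and fell by log2 0.60 ± 0.07 (adjusted p = 0.00229). Its groups were narrow and well separated. Adm, the vasodilator peptide adrenomedullin, was at 26.9, 24.2 and 23.6 CPM and at 17.3, 15.2 and 14.8 CPM (log2 -0.66 ± 0.09, adjusted p = 0.00477). Dact2, a regulator of Dishevelled in Wnt signalling, was at 16.1, 15.9 and 21.8 CPM and at 9.71, 8.96 and 8.4 CPM (log2 -0.997 ± 0.13, adjusted p = 0.00629). Neither gene overlapped between the groups.

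A pair of actin regulators fell. Twf2, a twinfilin that binds actin monomers, was at 71.2, 59.9 and 76.6 CPM in serum-free medium and at 43.5, 39.5 and 42.7 CPM with phenylephrine (log2 -0.73 ± 0.09, adjusted p = 0.00339). Lrrc16a, which binds the actin capping protein, was at 62.6, 64.4 and 60.0 CPM and at 42.6, 43.5 and 43.8 CPM (log2 -0.52 ± 0.06, adjusted p = 0.00229). Mgst3, a microsomal glutathione transferase, was at 76.5, 80.0 and 95.8 CPM and at 51.6, 51.9 and 53.4 CPM (log2 -0.69 ± 0.08, adjusted p = 0.00241). The phenylephrine libraries were below all serum-free libraries in each. Phyh, a peroxisomal hydroxylase of branched fatty acids, fell by log2 0.46 ± 0.06 (adjusted p = 0.00671). Trim50, a ubiquitin ligase, was at 4.2, 3.05 and 4.89 CPM and at 0.477, 0.652 and 0.579 CPM, and fell 7.08-fold (log2 -2.82 ± 0.27, adjusted p = 0.00229).

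**Figure D2:**
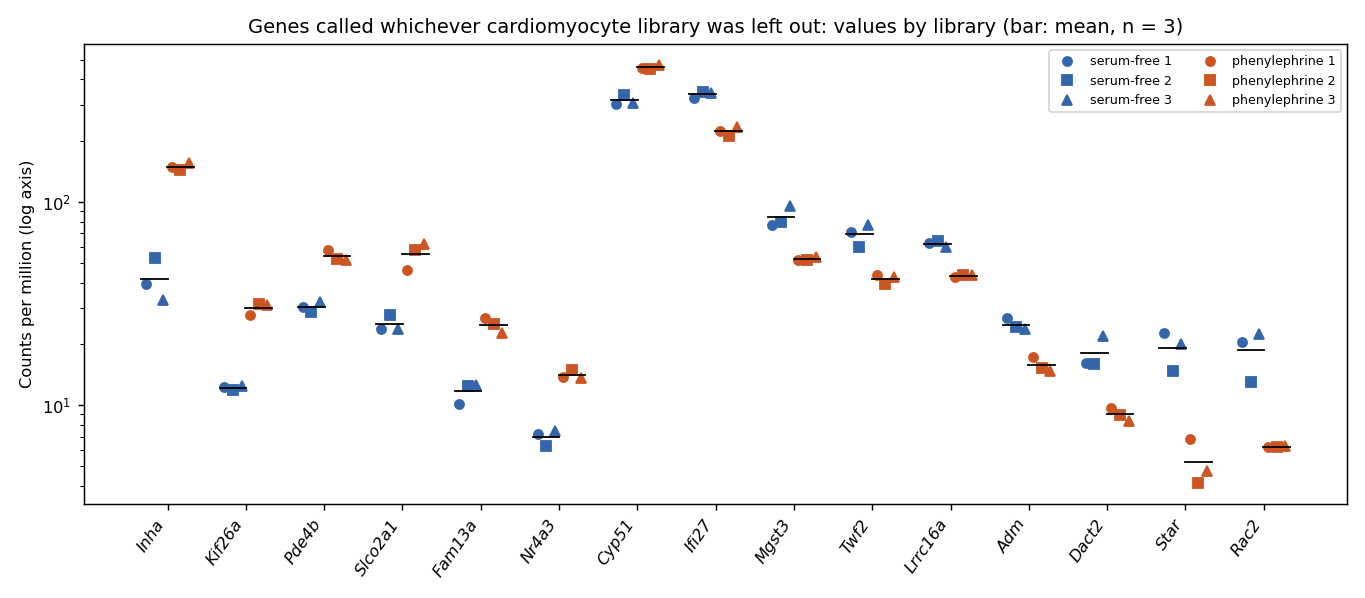
CPM (log axis) in each of the 6 cardiomyocyte libraries for 15 of the 28 genes called whichever cardiomyocyte library was left out; bars mark group means of 3 libraries. In every gene shown, as in all 503 called genes, the groups do not overlap. Inha has 32.8 to 52.7 CPM against 143 to 156 CPM.

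Among genes of larger change the calls depended more on single libraries. Hopx, a homeodomain protein that restrains SRF in the heart, was at 40.5, 26.0 and 40.0 CPM in serum-free medium and at 16.97, 13.5 and 13.2 CPM with phenylephrine. It fell 2.44-fold (log2 -1.29 ± 0.16, adjusted p = 0.00629). Gnb3, a G protein beta subunit, was at 16.4, 5.19 and 16.3 CPM and at 3.08, 2.93 and 3.14 CPM (log2 -2.06 ± 0.42, adjusted p = 0.0395, and 0.0631 without phenylephrine replicate 1). Serum-free replicate 2 lay near the phenylephrine libraries in this gene. Myl1, a skeletal muscle myosin light chain, was at 2.6, 5.57 and 1.96 CPM and at 11.5, 11.5 and 13.6 CPM (log2 1.88 ± 0.34, adjusted p = 0.0367). Fbn2, a fibrillin of elastic fibres, was at 9.21, 19.6 and 9.65 CPM and at 24.1, 40.6 and 41.3 CPM (log2 1.47 ± 0.31, adjusted p = 0.044). In both genes serum-free replicate 2 was the highest control. Its omission lowered the adjusted p to 4.65e-05 for Myl1 and 0.00218 for Fbn2. Over fits leaving out cardiomyocyte libraries, the largest adjusted p was 0.0508 for Hopx, 0.148 for Gnb3, 0.153 for Myl1 and 0.184 for Fbn2. Each of these genes thus lost its call in some fit.

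Eno3, muscle enolase, was at 27.2, 35.7 and 25.2 CPM in serum-free medium and at 70.3, 66.7 and 71.9 CPM with phenylephrine, and rose 2.38-fold (log2 1.25 ± 0.14, adjusted p = 0.00241). Other large rises were Lppr5 (2.78-fold), Hsf2bp (3.27-fold), the synaptotagmin Syt12 (2.4-fold) and Atcay (2.21-fold). Large falls included Mapt, which encodes tau (2.28-fold), Gpr22, an orphan receptor of the heart (2.61-fold), Tmem140 (2.42-fold), Sphkap, an anchor of protein kinase A (2.24-fold), and the betaine transporter Slc6a12 (2.85-fold). Of these 10 genes Eno3 alone was called in every fit that left out a cardiomyocyte library.

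The genes classically read as hypertrophy markers were mostly not called with all libraries. Nppa, atrial natriuretic peptide, was at 21944, 21312 and 21492 CPM in serum-free medium and at 23328, 24298 and 25382 CPM with phenylephrine (log2 0.17 ± 0.10, adjusted p = 0.343). The groups did not overlap, but the difference was not called. Nppb, the B-type peptide, was at 2492, 2564 and 2335 CPM and at 2551, 2645 and 2681 CPM (log2 0.09 ± 0.07, adjusted p = 0.499). Myh7, the slow myosin heavy chain of the fetal rat heart, was at 4654, 5754 and 4947 CPM and at 6278, 7442 and 7281 CPM (log2 0.45 ± 0.12, adjusted p = 0.0558). It was not called with all libraries but was without phenylephrine replicate 1 (adjusted p = 0.0198) or serum-free replicate 2 (adjusted p = 0.00501). Acta1, skeletal alpha-actin, was at 654, 1283 and 624 CPM and at 1100, 1178 and 1209 CPM (log2 0.45 ± 0.25, adjusted p = 0.338), with serum-free replicate 2 above every other library. Without that library its adjusted p was 4.65e-05, and without both that stand apart its log2 was 0.90 ± 0.06. Myh6 and Myh7, and the actins, are near copies whose reads may be split uncertainly. Atp2a2, the calcium pump of the sarcoplasmic reticulum, was at log2 -0.02 ± 0.12 (adjusted p = 0.946), and its sign changed with the libraries used. Of 20 natriuretic and fetal genes 1 rose and 1 fell (median 0.17), and of 39 sarcomere genes 3 rose and 0 fell (median 0.12). Without both libraries that stand apart those counts were 10 and 4, and 19 and 2, where 13.2% of all genes rose and 12.1% fell.

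Components of the signalling route moved in both directions. Adra1b, an alpha1 receptor, was at 12.7, 8.03 and 12.9 CPM in serum-free medium and at 5.67, 7.01 and 6.8 CPM with phenylephrine, and fell (log2 -0.79 ± 0.19, adjusted p = 0.0481, and 0.0681 without phenylephrine replicate 1). Adra1a was at 16.1, 19.2 and 19.2 CPM and at 23.4, 25.1 and 26.2 CPM (log2 0.46 ± 0.12, adjusted p = 0.0647), so it was not called. Rcan1, a calcineurin target and inhibitor, was at 679, 568 and 643 CPM and at 421, 508 and 473 CPM, and fell (log2 -0.43 ± 0.09, adjusted p = 0.0345). Mef2c, a transcription factor of muscle that answers to calcineurin, was at 77.4, 91.9 and 72.0 CPM and at 102, 128 and 125 CPM, and rose (log2 0.56 ± 0.10, adjusted p = 0.0236). Nfatc1 rose by log2 0.56 ± 0.11 (adjusted p = 0.0263). Of 36 genes of Gq, phospholipase C and protein kinase C, 0 rose and 2 fell. The immediate early genes Fos (log2 0.57 ± 0.15, adjusted p = 0.0598) and Egr1 (0.45 ± 0.22, adjusted p = 0.272) were not called.

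Of 23 ERK feedback genes 4 rose and 0 fell, with a median of 0.20. Ier3, an early response gene that prolongs ERK activity, was at 96.7, 97.2 and 95.5 CPM in serum-free medium and at 120, 123 and 124 CPM with phenylephrine (log2 0.34 ± 0.05, adjusted p = 0.0077). Spry4, a Sprouty inhibitor of the pathway, was at 54.4, 56.5 and 47.1 CPM and at 60.0, 73.2 and 77.2 CPM (log2 0.42 ± 0.10, adjusted p = 0.0416). Phlda1 was at 58.1, 57.8 and 47.6 CPM and at 69.2, 102 and 97.1 CPM (log2 0.72 ± 0.16, adjusted p = 0.0423). The groups did not overlap in any, and phenylephrine replicate 1 was the lowest of its group in the last pair. Dusp8, a phosphatase of MAP kinases, rose by log2 0.34 ± 0.08 (adjusted p = 0.0477), while Dusp6, a phosphatase of ERK, was at log2 0.10 ± 0.07 (adjusted p = 0.434). With scaling by library size alone 1 of the 23 rose.

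Cardiac transcription factors included Gata4, which drives hypertrophic genes, at 327, 325 and 336 CPM in serum-free medium and 364, 394 and 404 CPM with phenylephrine (log2 0.23 ± 0.06, adjusted p = 0.0473). Tbx20 was at 155, 212 and 176 CPM and at 233, 251 and 253 CPM (log2 0.44 ± 0.11, adjusted p = 0.0474). Klf15, a repressor of hypertrophic growth that glucocorticoids induce, was at 25.1, 16.4 and 23.1 CPM and at 13.9, 12.1 and 12.4 CPM (log2 -0.75 ± 0.14, adjusted p = 0.025). With Hopx they made 2 rises and 2 falls among 30 genes.

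The synthesis of cholesterol was the list with the largest share of rises. Of 21 genes tested 9 rose and 0 fell, with a median of 0.38 against -0.0013 for all genes. In 13 of them every phenylephrine library was above every serum-free one, as in 1505 of all 13869 genes tested. Cyp51, which removes a methyl group from lanosterol, was at 304, 336 and 307 CPM in serum-free medium and at 455, 450.5 and 472 CPM with phenylephrine, and rose 1.45-fold (log2 0.54 ± 0.08, adjusted p = 0.00671). Idi1, the isopentenyl diphosphate isomerase, was at 93.7, 109 and 91.8 CPM and at 149, 166 and 167 CPM (log2 0.72 ± 0.11, adjusted p = 0.0119). Hmgcs1, an early enzyme of the pathway, was at 209, 271 and 202 CPM and at 308, 372 and 388 CPM (log2 0.64 ± 0.13, adjusted p = 0.0345). No serum-free library reached the phenylephrine libraries in these genes. Fdft1, squalene synthase, rose by log2 0.54 ± 0.09 (adjusted p = 0.0186) and Sqle, squalene epoxidase, by 0.46 ± 0.10 (adjusted p = 0.0411). Hsd17b7, Sc5d, Dhcr7 and Msmo1 made up the rest of the 9 called genes, at log2 0.43 to 0.53.

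Of 26 genes of sterol regulation, uptake and transport 2 rose and 1 fell (median -0.11). Srebf2, the transcription factor that governs sterol genes, was at 123, 142 and 120 CPM in serum-free medium and at 158, 158 and 169 CPM with phenylephrine (log2 0.34 ± 0.07, adjusted p = 0.027). The desaturases Fads1 (log2 0.37 ± 0.07, adjusted p = 0.0236) and Fads2 (0.29 ± 0.05, adjusted p = 0.0212) and the elongase Elovl5 (0.32 ± 0.06, adjusted p = 0.0263) were 3 rises among 16 fatty acid synthesis genes, with 1 fall and a median of 0.05.

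In fibroblasts the median of the cholesterol genes was -0.24. The difference between the responses was called higher in cardiomyocytes for 9 of the 21, and for 226 of all 13869 genes tested. For Cyp51 the fibroblast log2 was -0.26, and the response in cardiomyocytes exceeded it by 0.81 ± 0.12 (adjusted p = 0.00599). For Idi1 the excess was 1.11 (adjusted p = 0.00765). With scaling by library size alone 7 of the 21 rose and 1 fell in cardiomyocytes, and the median was 0.33.

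**Figure D3:**
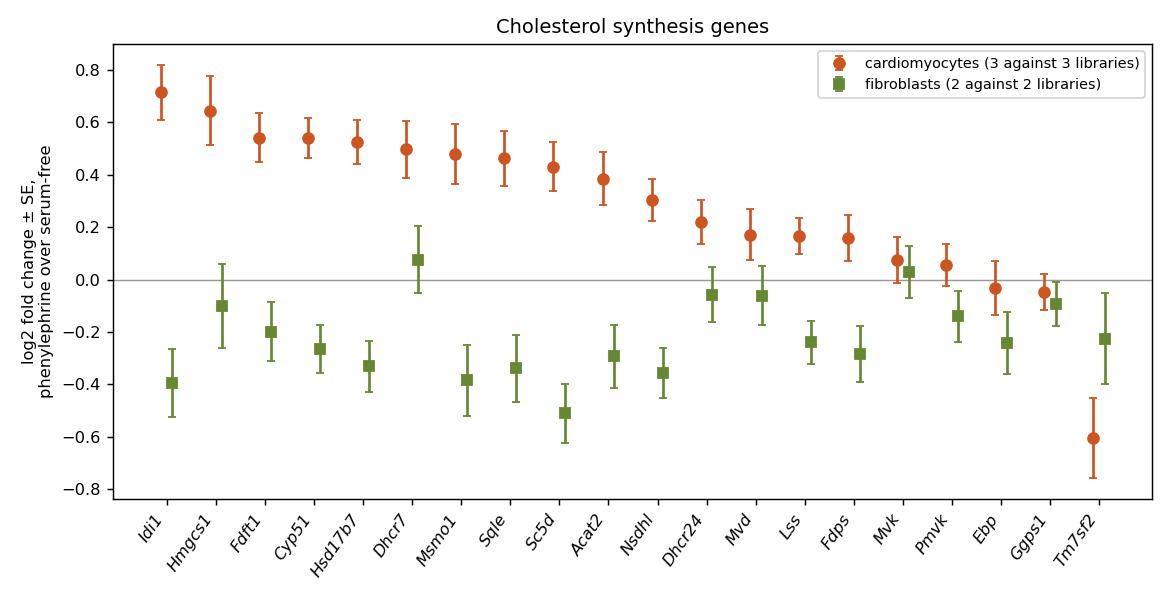
Fitted log2 fold change of phenylephrine over serum-free medium (y axis, bars ± SE) for 20 of the 21 cholesterol synthesis genes tested (x axis) in cardiomyocytes and fibroblasts. Over all 21 the cardiomyocyte median is 0.38 and the fibroblast median -0.24.

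Of 37 genes of TGF-beta and BMP signalling 9 rose and 0 fell, with a median of 0.24. Bmp7, a BMP ligand, was at 42.8, 49.0 and 43.0 CPM in serum-free medium and at 59.3, 79.6 and 81.6 CPM with phenylephrine (log2 0.71 ± 0.12, adjusted p = 0.0204). Bmp2 was at 12.5, 13.0 and 10.1 CPM and at 16.8, 20.9 and 18.3 CPM (log2 0.66 ± 0.12, adjusted p = 0.0215). Smad9, a BMP-receptor Smad, was at 13.6, 13.9 and 12.4 CPM and at 20.8, 24.9 and 25.7 CPM (log2 0.84 ± 0.11, adjusted p = 0.00629) and was the member of the list among the 28 genes. All 3 were higher in every phenylephrine library. The inhibitors Smad7 (log2 0.43 ± 0.09, adjusted p = 0.0289), Skil (0.38 ± 0.07, adjusted p = 0.0176) and Ski (0.33 ± 0.08, adjusted p = 0.049) rose as well. With scaling by library size alone the count was 6 and 0.

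Some matrix and adhesion genes were called with all libraries, where 1.79% of all genes tested rose and 1.84% fell. Of 30 collagens 3 rose and 0 fell (median 0.41), of 43 other matrix genes 3 rose and 1 fell (median 0.24), and of 28 integrins and laminins 2 rose and 0 fell (median 0.28). Col4a4, a basement membrane chain, was at 172, 234 and 179 CPM in serum-free medium and at 272, 283 and 305 CPM with phenylephrine (log2 0.56 ± 0.10, adjusted p = 0.0238). Nid2, a nidogen that links basement membrane networks, was at 83.5, 111 and 74.4 CPM and at 139.5, 146 and 164 CPM (log2 0.74 ± 0.13, adjusted p = 0.0224). Lamc1, the laminin gamma1 chain, was at 965, 1235 and 949.99 CPM and at 1466, 1507 and 1515 CPM (log2 0.51 ± 0.10, adjusted p = 0.0236). Serum-free replicate 2 was the highest control in each. Itga7, the laminin-binding integrin of muscle, rose by log2 0.62 ± 0.13 (adjusted p = 0.0391). Without both libraries that stand apart the rises numbered 17, 19 and 15 in the 3 lists, where 13.2% of all genes rose. Fibroblast markers sat high in these same libraries, at 11939 CPM in serum-free replicate 2 and 15071 CPM in phenylephrine replicate 1. Their part in the matrix results was not tested.

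Of 22 leukocyte markers tested 0 rose and 7 fell, with a median of -0.57. Every phenylephrine library was below every serum-free one in 13 of them, as in 1688 of all 13869 genes tested. Rac2, a small GTPase of blood cells, was at 20.4, 13.1 and 22.5 CPM in serum-free medium and at 6.26, 6.19 and 6.32 CPM with phenylephrine, and fell 2.99-fold (log2 -1.58 ± 0.18, adjusted p = 0.00241). Cybb, the catalytic subunit of the phagocyte oxidase, was at 58.9, 59.0 and 69.3 CPM and at 40.6, 32.2 and 31.7 CPM (log2 -0.84 ± 0.14, adjusted p = 0.0194). Ptprc, the pan-leukocyte antigen CD45, was at 8.58, 8.88 and 9.86 CPM and at 6.95, 5.98 and 4.87 CPM (log2 -0.62 ± 0.15, adjusted p = 0.0468). No leukocyte gene in these sentences overlapped between the groups. Mmp12, the macrophage metalloelastase, was at 61.9, 73.7 and 82.0 CPM and at 42.5, 26.8 and 26.8 CPM (log2 -1.18 ± 0.20, adjusted p = 0.0236). The summed level of the 23 leukocyte markers did not overlap either (exact permutation test, two-sided p = 0.1, the smallest that 3 against 3 libraries allow). This was not particular to leukocytes. Sums of cardiomyocyte, smooth muscle and pericyte, and Schwann and neural markers were higher without overlap, and erythroid sums lower, each at the same p. Fibroblast, endothelial and epicardial sums overlapped.

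Of 5 erythroid markers tested 0 rose and 1 fell (median -0.79). The 10 markers in the table, of which Hbe2 and Gata1 had no count, summed to 14.98 to 20.5 CPM in serum-free medium and 2.28 to 7.27 CPM with phenylephrine. Hba-a2, an alpha globin with near copies, was at 3.62, 5.03 and 5.95 CPM and at 2.17, 0.435 and 0.627 CPM (log2 -2.18 ± 0.45, adjusted p = 0.0367). Both marker sums were low with phenylephrine, and their part in the other results was not tested.

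Of 28 interferon-stimulated genes tested 0 rose and 5 fell, with a median of -0.26. In 13 of them every phenylephrine library was below every serum-free one, as in 1688 of all 13869 genes tested. Irf7, a transcription factor of the interferon response, was at 76.2, 56.6 and 76.6 CPM in serum-free medium and at 27.3, 43.7 and 45.9 CPM with phenylephrine (log2 -0.84 ± 0.19, adjusted p = 0.0473). Bst2, the antiviral protein tetherin, was at 24.9, 26.8 and 29.0 CPM and at 15.2, 20.6 and 19.0 CPM (log2 -0.56 ± 0.11, adjusted p = 0.0283). Phenylephrine replicate 1 was the lowest library in both, and the summed leukocyte markers were lower with phenylephrine as well. Their part in this result was not tested.

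The metallothioneins Mt1 and Mt2A, which bind zinc and are induced by metals and glucocorticoids, fell. Mt1 was at 26.3, 11.3 and 22.9 CPM in serum-free medium and at 7.9, 6.9 and 7.33 CPM with phenylephrine (log2 -1.45 ± 0.28, adjusted p = 0.0341). Mt2A was at 23.1, 8.99 and 21.6 CPM and at 5.62, 6.41 and 6.66 CPM (log2 -1.53 ± 0.31, adjusted p = 0.0367, and 0.0642 without phenylephrine replicate 1). Serum-free replicate 2 lay close to the phenylephrine libraries in both, and the genes are near copies. Of 21 glucocorticoid-induced genes 4 fell, including both metallothioneins, and 1 rose. Sgk1, a kinase induced by glucocorticoids, was at 34.0, 31.5 and 34.2 CPM and at 27.5, 17.002 and 16.3 CPM (log2 -0.72 ± 0.17, adjusted p = 0.0476).

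The number of calls changed with the 2 libraries that stand apart. Without both, 3486 genes were called (25.3%), 1820 rising and 1666 falling, and 501 of the 503 kept their call. Without serum-free replicate 2 alone there were 2371 and without phenylephrine replicate 1 alone 1084. Leaving out any of the other 4 cardiomyocyte libraries left 32 to 51. The 2 libraries were singled out from these data, and serum-free replicate 2 is the control nearest to the phenylephrine libraries, so removing it widens the difference between the groups by construction. Of 40 cell cycle genes 0 were called with all libraries (edgeR; median 0.37), but 25 rose and 1 fell without both (median 0.58). At an unadjusted p below 0.05, 18 of the 40 were higher and 0 lower, and DESeq2 called 10 higher and limma-voom 0. Of 33 actin and SRF genes 0 were called with all libraries (edgeR; median 0.25), and 21 rose and 1 fell without both. At an unadjusted p below 0.05, 14 of the 33 were higher and 0 lower, and DESeq2 called 5 higher and limma-voom 1.

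The pair left out gives a comparison of its own, with 1 library a side and therefore no test. Of the 1820 genes that rose in the other libraries, 1097 (60.3%) were also higher in phenylephrine replicate 1 than in serum-free replicate 2, where 49% of all genes were. Of the 1666 that fell, 1131 (67.9%) were also lower, where 50.9% of all genes were. Among the 259 rises of at least 2-fold, 123 (47.5%) were higher in the pair, no more than among all genes. Among the 232 falls of at least 2-fold, 186 (80.2%) were lower in it. The lists split. All 9 ERK feedback genes that rose without the pair were higher in it, as were 13 of 15 cholesterol genes, 15 of 16 TGF-beta and BMP genes and 19 of 21 actin and SRF genes. All 14 leukocyte markers and all 11 interferon genes that fell were lower in it. Only 2 of 25 cell cycle genes, 1 of 10 glycolysis genes and 8 of 19 sarcomere genes that rose were higher in the pair.

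**Figure D4:**
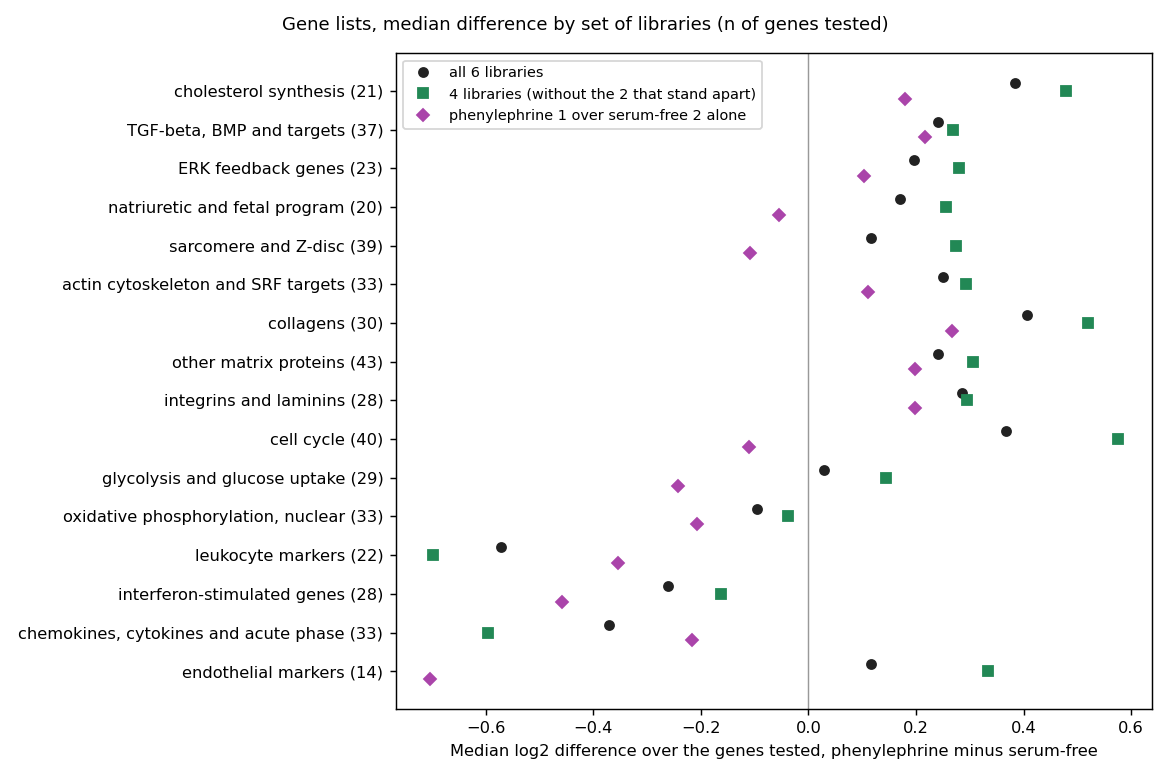
Median log2 difference (x axis, phenylephrine minus serum-free) over the tested genes of 16 lists (y axis, number of genes in brackets) with all 6 libraries, with the 4 that do not stand apart, and in phenylephrine replicate 1 over serum-free replicate 2 alone. Cholesterol, TGF-beta and matrix medians are above 0 and leukocyte and interferon medians below 0 in all 3, whereas the cell cycle median is 0.37, 0.58 and -0.11.

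**Figure D5:**
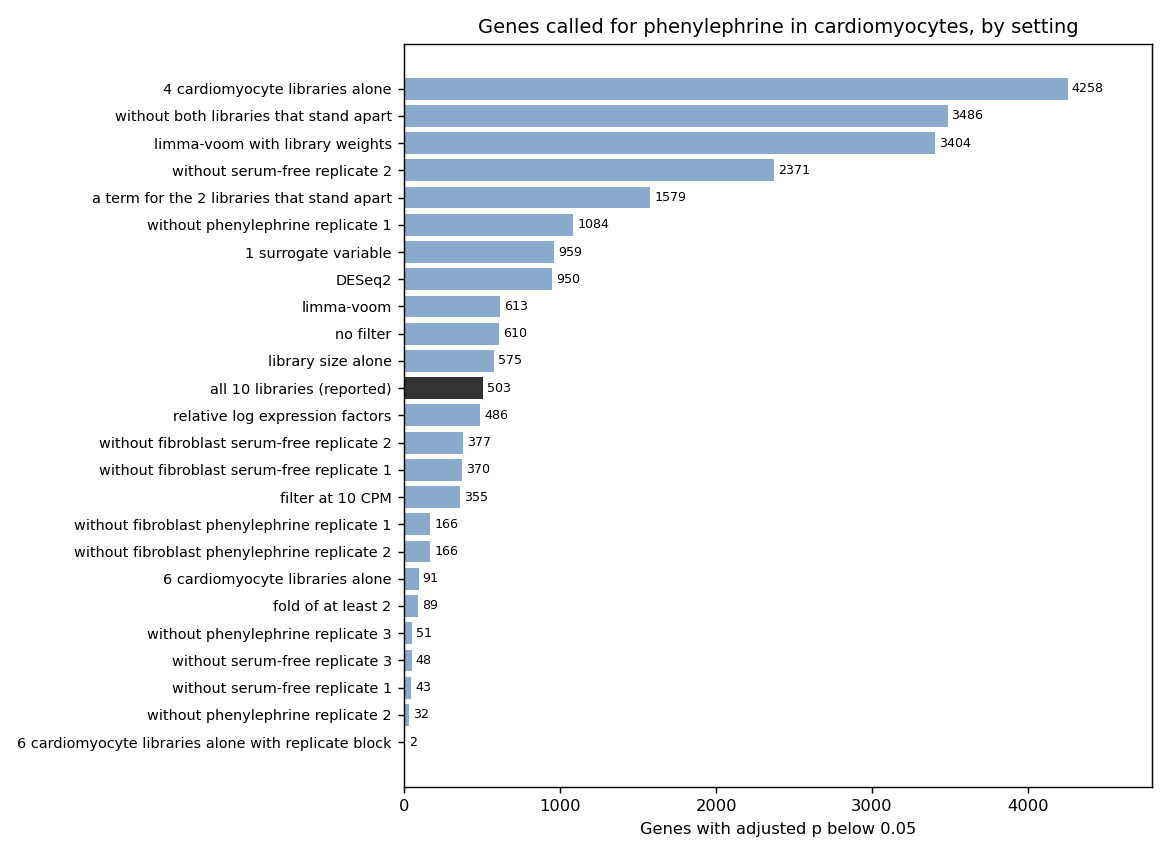
Number of genes called for phenylephrine in cardiomyocytes (x axis, adjusted p below 0.05) under each setting (y axis). The reported fit called 503, and the number ran from 2 with a replicate block to 4258 in the 4 remaining cardiomyocyte libraries alone.

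The response differed from that of fibroblasts for 451 genes (3.25%), 226 with the higher log2 change in cardiomyocytes and 225 with the lower, and 130 of them were also called in cardiomyocytes. This count fell to 71 and 72 without fibroblast phenylephrine replicates 1 and 2, and was 142 and 473 without fibroblast serum-free replicates 1 and 2. Pde4b rose in both cell types, by log2 0.83 in cardiomyocytes and 2.83 in fibroblasts, a difference of -1.9995 ± 0.13 (adjusted p = 9.51e-05). Dact2, which fell in cardiomyocytes, was 3.07 higher on the log2 scale in fibroblasts with phenylephrine, a difference of -4.07 ± 0.49 (adjusted p = 0.00286). Mef2c rose by 0.56 in cardiomyocytes and was at -0.80 in fibroblasts, a difference of 1.36 ± 0.17 (adjusted p = 0.00392). For Inha (2.55 in fibroblasts, adjusted p = 0.212 for the difference) and Kif26a (1.63, adjusted p = 0.141) the difference was not called.

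The authors' deposited table gives 792 genes at an adjusted p below 0.05 for the same comparison, 424 higher and 368 lower with phenylephrine. It includes 495 of the 503 genes called here (98.4%), which are 62.5% of its own calls, and 0 of these had the opposite sign. For Inha the authors' deposited table gives a log2 fold change of 1.84 and for Star -1.87. Its further calls, by the authors' DESeq2 test, include Myh7 (adjusted p = 0.00531), Adra1a (0.0138) and Fos (0.0254), which were not called here. By the same test Nppa (adjusted p = 0.287), Nppb (0.653) and Acta1 (0.617) were not called there either.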

How the data were processed

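Per the labels, total RNA of 10 samples (1000 ng each) was made into sequencing libraries. Per the submitters' processing notes, reads were handled with cutadapt, TopHat2 2.0.10 on build Rnor_6.0, HTSeq 0.6.1p1 and DESeq2 1.6.3; the annotation release and strand setting are not given in the sources used here. The authors' deposited table holds raw read counts per gene symbol, their log2 fold changes and their adjusted p-values; 10 further per-library columns were not used. Of 28522 symbols, 16885 matched current RefSeq symbols.

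TMM scaling (trimmed mean of M values) was applied, with genes filtered with filterByExpr (minimum count 10, minimum total 15) and a model fitted for all 10 libraries with edgeR 4.0.16 (quasi-likelihood, robust, 1 coefficient per group, R 4.3.3). Calls required an adjusted p below 0.05 (Benjamini-Hochberg over all genes tested); log2 values are fitted fold changes ± SE, and CPM uses effective library sizes. The response difference is the interaction contrast. The script was tested on simulated counts. Members, lists and the naming rule were chosen with earlier results of these data known. The rule named Inha, Nr4a3, Cyp51, Star and Rac2, the 12 largest called rises and falls with at least 10 CPM and no overlap, 10 rises and 10 falls called in every fit that leaves out a cardiomyocyte library, a panel of 24 genes, up to 4 members per list and 6 genes per end for each library that stands apart. Hmgcs1, Sqle, Sc5d, Dhcr7, Msmo1, Sik1, Sgk1, Smad7, Ski, Ptprc, Irf7, Kl, Agpat4, Ssbp3, Zdhhc9, Kdm5d and Eif2s3y were chosen after their values were seen. Genes that overlap or have near copies can share reads. Alternatives were other scalings, filters, DESeq2 1.42.0, limma-voom 3.58.1, sva 3.50.0, blocks and left-out libraries. Some genes the rule named are not reported here.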

Additional observations from a re-analysis of the deposited data

Results flagged for a closer look

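The response to phenylephrine differed between cell types by the test of the difference itself (edgeR interaction contrast, adjusted p below 0.05) for 32 of the genes named above. Values are log2 response in cardiomyocytes minus that in fibroblasts, which had 2 libraries a group.

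Among the cyclic AMP, prostaglandin and nuclear receptor genes the difference was -1.9995 for Pde4b, -1.85 for Slco2a1, -1.85 for Ptges, -1.29 for Nr4a1 and -0.744 for Nr4a3. Among sterol genes it was 0.806 for Cyp51, 0.857 for Hsd17b7, 1.11 for Idi1, 0.942 for Sc5d, 0.741 for Fdft1, 0.802 for Sqle and 0.864 for Msmo1. Among ERK feedback genes it was 1.17 for Spry4, 0.568 for Ier3 and 1.02 for Dusp8. For transcription factors and signalling genes it was 1.36 for Mef2c, -1.70 for Hopx, -0.989 for Klf15, 0.552 for Skil, -4.07 for Dact2 and -2.49 for Adra1b. For matrix and adhesion genes it was 1.43 for Nid2 and 1.37 for Itga7. For the remaining genes it was -0.84 for Ifi27, -1.18 for Bst2, -0.947 for Adm, -1.01 for Twf2, 1.39 for Eno3, 1.95 for Atcay, -1.16 for Mgst3 -0.521 for Phyh and 0.558 for Zdhhc9.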

How the results depend on the processing

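Against 503 genes called in cardiomyocytes (255 falling, 248 rising) and 451 for the difference between cell types, relative log expression factors, limma-voom and no filter kept every count within 1.5 times. DESeq2 called 950 (446 and 504) and 790, library weights 3404 (1690 and 1714) and 1818, and 1 surrogate variable 959 (466 and 493) and 1025. Scaling by library size alone moved the median of all genes to -0.05 and the falls to 396, with 179 rises, and a filter at 10 CPM left 163 falls. A fold of at least 2 left 89 (54 and 35) and 157. The 6 cardiomyocyte libraries alone gave 91 (41 and 50). Without both libraries that stand apart there were 3486 (1666 and 1820) and 2657, in the 4 other cardiomyocyte libraries alone 4258 (2065 and 2193), and with a term for them 1579 (762 and 817) and 1201; the last pair were chosen after seeing the data. Leaving out 1 library at a time gave 32 to 2371 called, 11 to 1097 falling, 20 to 1274 rising and 71 to 1290 for the difference; leaving out fibroblast libraries was added after seeing the data. The cause was not tested.

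Same-numbered libraries correlated at -0.22, -0.10 and 0.02 in their deviations, so the numbers were not taken as pairs; a replicate block in the 6 libraries called 2 (1 and 1), and a block within each cell type 198 for the difference.

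Of the 101 named genes 4 reversed sign under some setting, and none of the 4 was called in the reported fit. Lcn2 (0.26) and Cxcl1 (0.031) reversed with a surrogate variable. Without both libraries that stand apart they were called as falls (edgeR, adjusted p = 0.000198 and 0.000171). Nr4a1 reversed without both (-0.044) and in the 4 libraries (-0.046), and ranged from -0.024 to 0.21 with 1 library left out. Atp2a2 did so with library weights (0.048), a surrogate variable (0.034), without both (0.11) and in the 4 libraries (0.11), and ranged from -0.14 to 0.12 with 1 library left out.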
